A study of Drosophila melanogaster with 12 samples.

Results

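The vacuolar proton pump, or V-ATPase, of Drosophila melanogaster is encoded by the Vha genes, and their transcripts were followed here in adult flies of both genotypes on both diets. Members were all genes whose array symbol starts with Vha followed by a digit or capital letters. The rule found 31 genes among the 11982 genes named by a probe set of their own, and these had 32 of the 18769 probe sets on the array. Vha16-1 alone had a second probe set, and each gene was represented by its probe set with the highest mean level. Classes were kept apart from general knowledge of where the genes are used, which the arrays did not supply. The 12 genes of the plasma-membrane type encode the pump of transporting epithelia, 7 genes are testis-biased paralogues, 10 are other paralogues and 2 are accessory subunits. Vha68-1 and Vha68-2, which encode the catalytic subunit A outside the testis, were not reached by the rule and were not analysed here.

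The V-ATPase is a rotary machine in which a peripheral sector, V1, splits ATP and a membrane sector, V0, carries protons. In most cells it acidifies lysosomes, endosomes and secretory or synaptic vesicles. In insect epithelia such as the Malpighian (renal) tubule and parts of the midgut it also lies in the plasma membrane, where the proton gradient it builds drives the transport of other ions. Several subunits have more than one gene in the fly, with one widely used gene and others restricted to few tissues, the testis among them.

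Total RNA had been hybridised to 12 arrays, 3 for each of 4 groups. The genotypes were Canton S, a wild-type strain, and a mutant of the nuclear receptor DHR96, whose gene is Hr96. The mutant arrays carry the short name E25, read as the DHR96 mutant because only these strains are named, and the labels give no allele. All flies, controls included, had gone without food overnight before receiving either sucrose or sucrose containing 0.3% phenobarbital, a barbiturate that induces detoxification enzymes. The labels do not give sex or age, or say that replicates are separate cultures, so p-values reflect only array-to-array spread, possibly technical.

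The median intensity of an array lay between 38.5 and 47.5, and 44.4% to 45.6% of its probe sets were dim, meaning a log2 level under 4. Hr96 transcript was higher on every mutant array than on every wild-type array, with a mean log2 level of 8.39 ± 0.17 and 8.53 ± 0.29 in wild type on sucrose and phenobarbital, against 9.99 ± 0.07 and 10.24 ± 0.06 in the mutant (SD, n = 3 each). Where the probe set lies relative to the mutation is not given, so this level does not check for lost function. Markers of testis, of ovary and eggshell, of accessory gland, of midgut and of flight muscle were all measured above the dim limit for most of their genes, so the RNA held male and female tissue. Of the 8 nervous system markers, 4 were dim. The testis markers differed between arrays of a group, as described with the testis-biased genes. In such whole-animal RNA, fewer cells of a type and less RNA per cell cannot be told apart.

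The 12 genes of the plasma-membrane type were all bright, with mean log2 levels between 10.32 and 14.46. They were also tight: the median SD between arrays of a group was 0.07 on the log2 scale (range 0.04 to 0.09 over the 12 genes), against 0.14 for all 2148 probe sets with a mean log2 level of 10 or more. The testis-biased paralogues had a median SD of 0.48 (0.23 to 0.59) and the other paralogues one of 0.32. The heat map of all members shows this contrast between an even upper block and an uneven lower one.

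**Figure D1:**
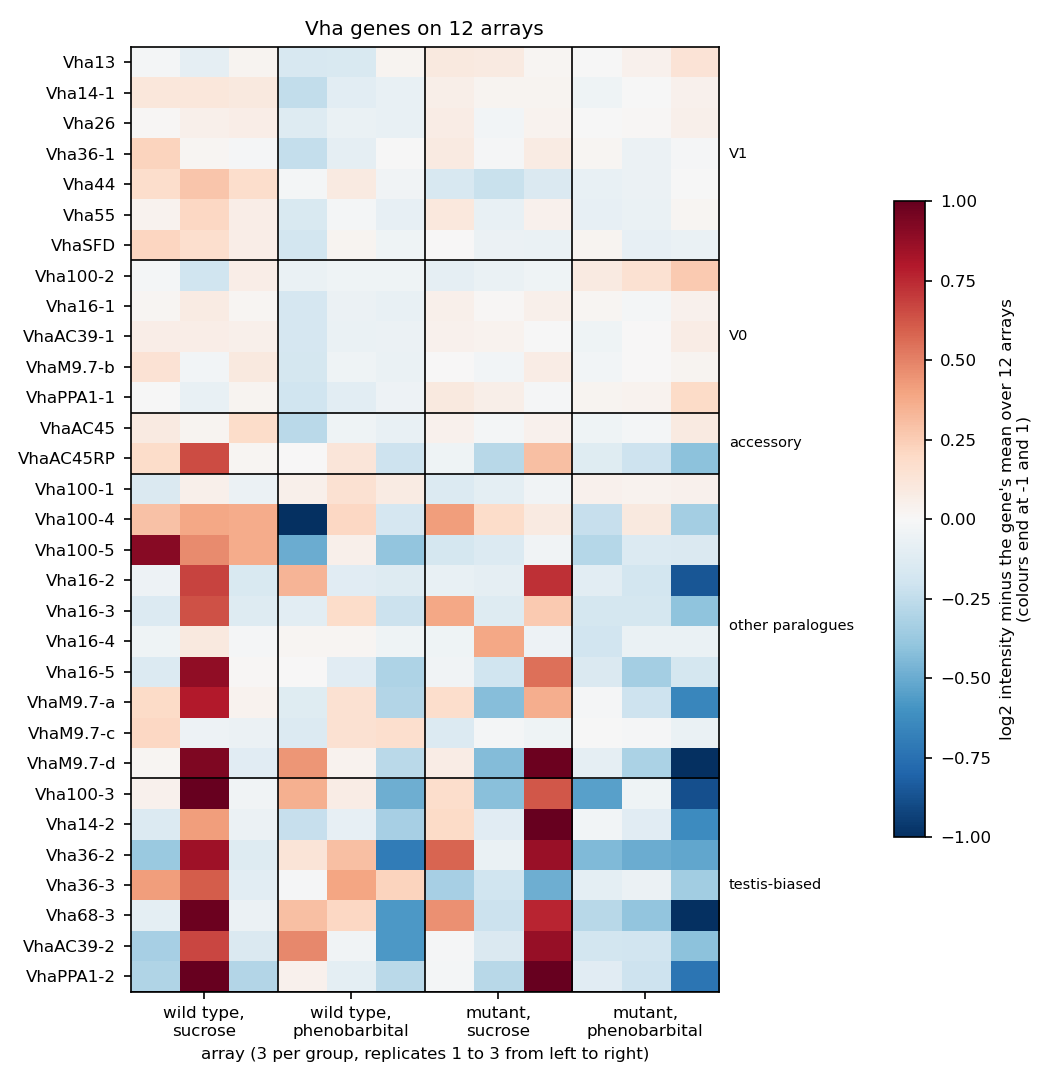
Heat map of the 31 Vha genes (rows, grouped by class) on the 12 arrays (columns, grouped by genotype and diet); colour gives the log2 level minus the gene's mean over the 12 arrays, ending at -1 and 1. The genes of the plasma-membrane type vary little, while most testis-biased genes are high on wild-type sucrose replicate 2 and mutant sucrose replicate 3.

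In wild type, phenobarbital was accompanied by slightly lower transcript levels across the plasma-membrane pump. All 12 genes had a negative log2 change or one of 0.00, with a median of -0.16 and a range of -0.25 to 0.00, whereas the median over all probe sets was 0.02 and 37.3% of them were lower. Among the 2148 probe sets as bright as these genes (mean log2 level of 10 or more) the median was -0.03 and 56.1% were lower. Vha14-1, Vha26 and Vha44 of V1 and Vha16-1 and VhaAC39-1 of V0 fell at an adjusted p under 0.05 in limma's moderated test (Benjamini-Hochberg over all probe sets). These 5 were joined by Vha100-5 of the other paralogues, so 6 of 31 members fell and 0 rose, where 2.76% of all probe sets fell and 3.04% rose; among the bright probe sets 176 of 2148 fell. An unadjusted p under 0.05 was found for 13 members, against 2619 of all 18769 probe sets and 743 of the 2148 bright ones. At the additional limit of a 1.5-fold change only Vha100-5 was called, 1 of 31 genes against 2.0% of all probe sets in that direction. The wild-type groups did not overlap, with phenobarbital lower, for 11 of 31 members and 8 of the 12 genes of the plasma-membrane type, against 7.17% of all probe sets and 337 of the 2148 bright ones.

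Among the V1 subunits, Vha14-1 encodes subunit F of the central stalk. Its log2 levels were 12.17, 12.17 and 12.15 on wild-type sucrose and 11.81, 11.95 and 11.98 on wild-type phenobarbital. Every phenobarbital array was below every sucrose array, and the log2 change was -0.25 ± 0.04 (SE), 1.19-fold lower (limma, adjusted p = 0.0073). Mutant arrays read 12.11, 12.08 and 12.08 on sucrose and 12.01, 12.05 and 12.10 on phenobarbital, so the mutant groups overlapped. Of the 6 genes that fell, it alone passed in each of the 12 fits that left out 1 array, with an adjusted p of 0.005 to 0.031.

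Vha26 encodes subunit E, part of the peripheral stalks that hold V1 to the membrane. Its wild-type log2 levels were 13.94, 13.98 and 13.99 on sucrose and 13.80, 13.86 and 13.85 on phenobarbital, groups that did not overlap. The log2 change was -0.13 ± 0.03 (adjusted p = 0.038 by limma). In the mutant the levels were 14.00, 13.90 and 13.96 on sucrose and 13.92, 13.94 and 13.98 on phenobarbital, with no separation.

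Vha44 encodes subunit C, which bridges V1 and V0. Its log2 levels in wild type were 10.50, 10.60 and 10.50 on sucrose and 10.30, 10.41 and 10.29 on phenobarbital, again without overlap. The log2 change was -0.20 ± 0.04 (adjusted p = 0.020 by limma). It was the gene of the plasma-membrane type that also differed between genotypes, as given with the sucrose comparison.

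The other 4 V1 genes did not pass the test. Vha55, the non-catalytic nucleotide-binding subunit B, read 12.99, 13.16 and 13.02 on wild-type sucrose and 12.80, 12.93 and 12.87 on phenobarbital, a log2 change of -0.19 ± 0.06 (adjusted p = 0.16 by limma). VhaSFD, the regulatory subunit H, read 12.06, 12.01 and 11.91 against 11.66, 11.87 and 11.80, a log2 change of -0.22 ± 0.06 (adjusted p = 0.075). Neither gene's groups overlapped. Vha36-1, subunit D of the central shaft, read 12.44, 12.24 and 12.21 against 11.98, 12.13 and 12.22 (-0.19 ± 0.07, adjusted p = 0.27). Vha13, subunit G of the peripheral stalks, read 13.72, 13.65 and 13.77 against 13.58, 13.59 and 13.77 (-0.06 ± 0.06, adjusted p = 0.55). Both of these overlapped between the diets.

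Among the V0 subunits, Vha16-1 encodes the proteolipid c that forms the rotating ring. Its log2 levels were 14.48, 14.54 and 14.48 on wild-type sucrose and 14.29, 14.40 and 14.38 on wild-type phenobarbital, a change of -0.14 ± 0.03 (adjusted p = 0.037 by limma). VhaAC39-1, subunit d that couples the ring to the shaft, read 12.11, 12.11 and 12.10 against 11.88, 11.98 and 11.99, a change of -0.16 ± 0.04 (adjusted p = 0.034). Both genes were lower on every phenobarbital array of wild type. In the mutant their changes were -0.02 and -0.01 on the log2 scale.

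VhaM9.7-b, the small subunit e, read 12.46, 12.29 and 12.41 on wild-type sucrose and 12.14, 12.27 and 12.25 on phenobarbital, without overlap but short of the threshold (log2 change -0.17 ± 0.05, adjusted p = 0.12 by limma). VhaPPA1-1, the second kind of ring proteolipid known as c'', read 12.64, 12.57 and 12.67 against 12.44, 12.54 and 12.59, with groups that overlapped (-0.10 ± 0.06, adjusted p = 0.48). Vha100-2, the subunit a of the epithelial pump, stood apart from the rest of the set. It read 11.81, 11.63 and 11.89 against 11.76, 11.78 and 11.78, a log2 change of 0.00 ± 0.06 with a 95% interval of -0.15 to 0.14.

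The second probe set of Vha16-1 gave a larger difference than the first. It read 13.09, 13.19 and 13.26 on wild-type sucrose and 12.86, 12.81 and 12.90 on phenobarbital, a log2 change of -0.33 ± 0.06 (adjusted p = 0.010 by limma). The probe sets of this gene therefore had the same direction in wild type but changes of different size. They disagreed between genotypes on sucrose, where the first gave a log2 difference of 0.00 and the second, with mutant levels of 12.69, 12.83 and 12.87, one of -0.39 ± 0.06 (adjusted p = 0.037).

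**Figure D2:**
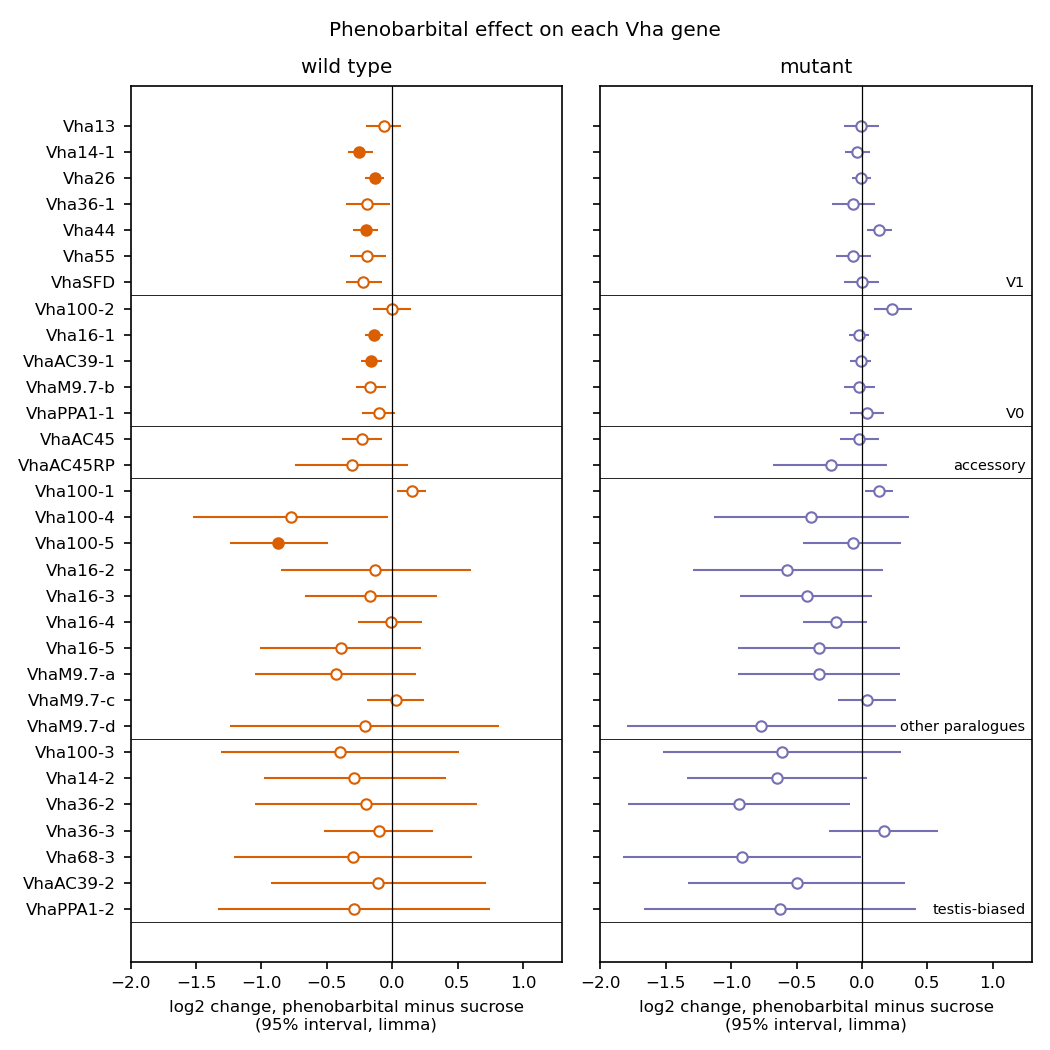
Log2 change on phenobarbital (horizontal axis) of each Vha gene, with its 95% interval from the limma fit, wild type and mutant in separate panels; filled points had an adjusted p under 0.05. In wild type 6 genes are filled, all below 0, and in the mutant none is.

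The calls of the 5 genes of the plasma-membrane type depended on the fit, although their direction did not. With an intensity trend in the prior, or with dim probe sets left out, none of them passed: the adjusted p of Vha14-1 became 0.054 and 0.095, and that of the other 4 lay between 0.17 and 0.42. Of the 12 fits that left out 1 array, Vha44 passed in 9, Vha26 and VhaAC39-1 in 4 each and Vha16-1 in 2. Without wild-type phenobarbital replicate 1, the lowest array of its group for 11 of the 12 genes, Vha14-1 was the one Vha gene that still fell, the median over the 12 genes was -0.12 and 11 of 12 were lower. Without wild-type phenobarbital replicate 3, 2 Vha genes fell, and without wild-type sucrose replicate 2 or mutant phenobarbital replicate 2, 3 did. Markers of other organs moved between the same groups. All 13 accessory gland markers were lower on phenobarbital in both genotypes without overlap, by a median of -1.12 on the log2 scale in wild type and -1.39 in the mutant, with none of them dim and a summed intensity of 96471 to 128185 on wild-type sucrose, 38598 to 70267 on wild-type phenobarbital, 89412 to 143330 on mutant sucrose and 35137 to 59264 on mutant phenobarbital. The 18 ovary and eggshell markers, 2 of them dim, had a median log2 change of -0.53 in wild type, where 12 were lower and the vitelline membrane genes Vm34Ca and Vm26Aa fell by 6.73 ± 1.06 and 6.24 ± 0.77. Their summed intensity was 59126 to 91811 on wild-type sucrose and 47522 to 71101 on wild-type phenobarbital. All 6 flight muscle markers, none dim, had negative changes in wild type (median -0.32) and none passed the test (2 at an unadjusted p under 0.05). Their summed intensity was 69032 to 96890 on wild-type sucrose and 60719 to 77962 on wild-type phenobarbital. The part of these markers in the result was not tested.

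Vha100-5, a further gene for subunit a whose role is less well described, had the lowest log2 change of any Vha gene in wild type. Its log2 levels were 9.71, 9.27 and 9.17 on wild-type sucrose and 8.30, 8.85 and 8.40 on wild-type phenobarbital. The groups were well separated, and the log2 change was -0.87 ± 0.17, 1.82-fold lower, with a 95% interval of -1.24 to -0.49 (adjusted p = 0.015 by limma). Mutant arrays lay at 8.62, 8.66 and 8.76 on sucrose and 8.51, 8.66 and 8.65 on phenobarbital, within the range of wild type on phenobarbital and below every wild-type sucrose array. The change in the mutant was -0.07 on the log2 scale (95% interval -0.45 to 0.30), and the genotype difference on sucrose was -0.70 ± 0.17 (adjusted p = 0.15). The wild-type call was lost without phenobarbital replicate 1 (log2 change -0.76, adjusted p = 0.054) or replicate 3 (-0.81, adjusted p = 0.06), and in a fit of the 6 wild-type arrays alone (adjusted p = 0.19).

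The remaining genes of subunit a, the V0 subunit that holds the proton path and directs the pump to its membrane, did not share one pattern. Vha100-1, the neuronal form of synaptic vesicles, read 10.44, 10.64 and 10.53 on wild-type sucrose and 10.64, 10.74 and 10.67 on phenobarbital. In the mutant it read 10.45, 10.49 and 10.55 on sucrose and 10.63, 10.62 and 10.63 on phenobarbital. The log2 change was 0.15 ± 0.05 in wild type, with 0.13 ± 0.05 for the mutant, and it rose in the mean of both genotypes by 0.14 ± 0.03 (adjusted p = 0.037 by limma). That call passed in 3 of the 12 fits that left out 1 array and not under an intensity trend, quantile normalization or the filter on dim probe sets. Without wild-type sucrose replicate 2 it also rose in wild type alone. Over the mean of both genotypes 1 of 31 Vha genes rose and 2 fell, Vha14-1 and Vha100-5, where 5.42% and 4.35% of all probe sets did. Of the 12 fits that left out 1 array, Vha14-1 passed in 12 and Vha100-5 in 2.

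Vha100-4, needed for acid secretion in the midgut, read 7.41, 7.51 and 7.49 on wild-type sucrose and 5.81, 7.33 and 6.95 on phenobarbital. All phenobarbital arrays were lower, replicate 1 far below the other replicates, and the log2 change of -0.77 ± 0.33 did not pass (adjusted p = 0.33 by limma). The mutant change was -0.39 ± 0.33 (adjusted p = 0.68). Vha100-4 and Vha100-2 are direct neighbours on chromosome arm 3R in the RefSeq gene table.

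Midgut markers differed between the groups in which Vha44, Vha100-5 and the second probe set of Vha16-1 differed. The mean log2 level of the 9 midgut markers, none of them dim, was 10.73 to 11.15 on wild-type sucrose, 10.22 to 10.39 on wild-type phenobarbital, 10.51 to 10.60 on mutant sucrose and 9.58 to 9.81 on mutant phenobarbital. Their summed intensity ran the other way between diets, from 43103 to 49478 and from 59221 to 62773 in wild type, and from 40532 to 43574 and from 62965 to 65385 in the mutant. Single markers had opposite signs: the maltase Mal-A6 rose by 2.17 ± 0.23 and the protease Jon99Fi fell by 3.56 ± 0.22 on the log2 scale in wild type. The part of these markers in the results was not tested.

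**Figure D3:**
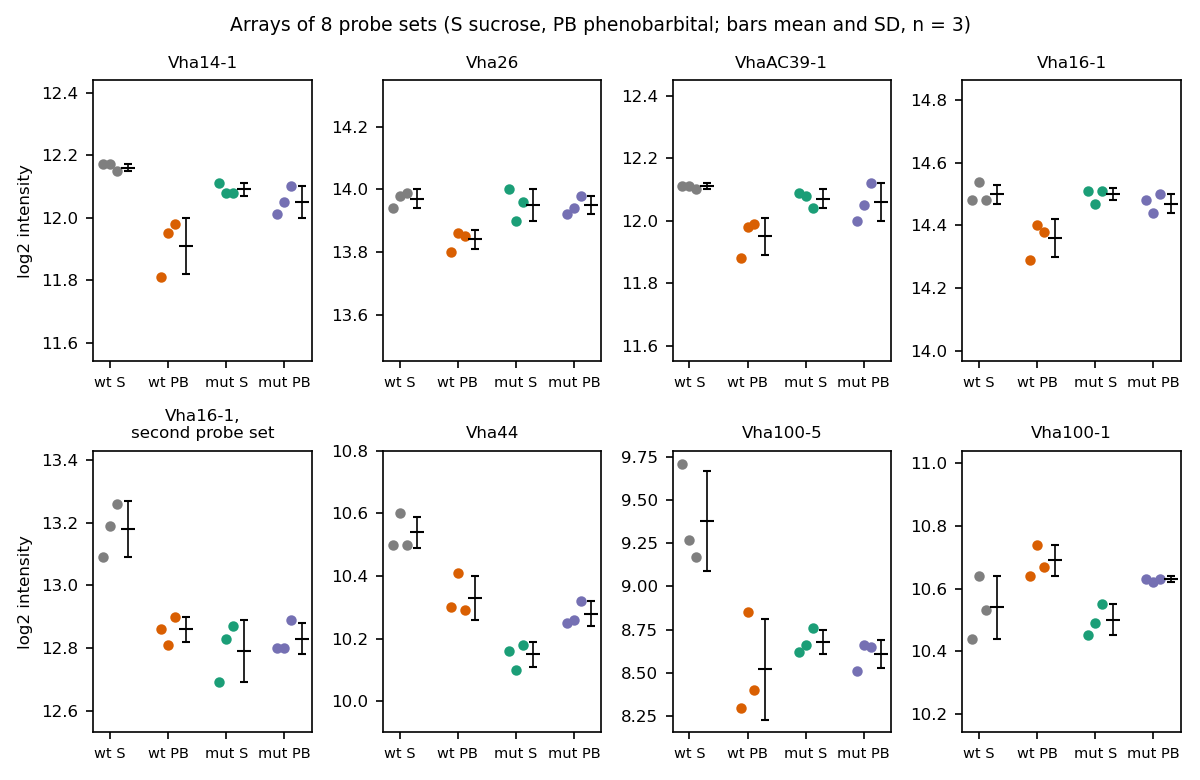
Log2 level (vertical axis) on each array of 8 probe sets, those of Vha14-1, Vha26, VhaAC39-1, Vha16-1 with its second probe set, Vha44, Vha100-5 and Vha100-1, by genotype and diet; points are arrays, bars the mean and SD of 3 arrays. For Vha100-5 all 6 mutant arrays lie below the 3 wild-type sucrose arrays.

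The accessory subunits did not pass the test in any comparison. VhaAC45, a membrane glycoprotein that accompanies V0, read 12.84, 12.78 and 12.94 on wild-type sucrose and 12.48, 12.71 and 12.68 on phenobarbital, without overlap (log2 change -0.23 ± 0.07, adjusted p = 0.097 by limma). Its mutant change was -0.02 ± 0.07. VhaAC45RP, a related gene, had log2 changes of -0.31 ± 0.19 and -0.24 ± 0.19 in wild type and mutant, with overlapping groups.

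In the mutant, no Vha gene passed the test on phenobarbital. The limma fit called 0 of 31 genes in either direction, where 6.18% of all probe sets passed at an adjusted p under 0.05. An unadjusted p under 0.05 was found for 5 genes, against 3300 of all 18769 probe sets and 842 of the 2148 bright ones. Over the 12 genes of the plasma-membrane type the median log2 change was -0.01, with 9 negative and 3 positive values between -0.07 and 0.23, where 38.9% of all probe sets were negative with a median of 0.00. Array weights, which gave mutant sucrose replicate 1 a weight of 104 against 0.282 to 6.37 for the other arrays, called 18 members lower and 5 higher. The share of all probe sets called with these weights was not counted, so these counts cannot be read as a result about the Vha genes. The median of the 12 genes was -0.05 with these weights and -0.07 after quantile normalization, when the wild-type median was -0.15; 1 array left out at a time gave -0.03 to 0.00. The value nearest the threshold was that of Vha100-2, which read 11.74, 11.76 and 11.78 on mutant sucrose and 11.92, 11.98 and 12.09 on mutant phenobarbital. Its groups did not overlap and its log2 change was 0.23 ± 0.06 (adjusted p = 0.076 by limma). It passed without wild-type sucrose replicate 2 or replicate 3, arrays that enter this contrast through the shared spread alone.

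The responses of the genotypes were compared directly as an interaction, the mutant change minus the wild-type change. It was positive for all 12 genes of the plasma-membrane type, with a median of 0.14 and a range of 0.06 to 0.34 on the log2 scale, against a median of -0.01 over all probe sets and 0.06 over the 2148 bright ones, of which 1488 were positive. Of all probe sets 44.3% were positive. Some other gene lists were mostly positive too, as given with those lists. After quantile normalization 11 of 12 were positive, with a median of 0.10, and with array weights 10 of 12, with a median of 0.08. None passed in limma after adjustment (adjusted p of 0.39 to 0.84), and 7 of the 12 had an unadjusted p under 0.05. Among all 18769 probe sets 0.0% were called, the smallest adjusted p was 0.072 and 624 had an unadjusted p under 0.05. The difference between the wild-type and mutant responses is therefore not shown for any Vha gene.

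Within the set, Vha44 had the highest interaction value, 0.34 ± 0.06 (unadjusted p = 0.00028, adjusted p = 0.39 by limma). That of Vha100-5, outside it, was 0.79 ± 0.24 (unadjusted p = 0.0084, adjusted p = 0.84).

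On sucrose, 1 of 31 genes, Vha44, differed between the genotypes through its chosen probe set, where 0.25% of all probe sets were lower at an adjusted p under 0.05. With the 1.5-fold limit 0 of 31 were called, against 0.213% of all probe sets. An unadjusted p under 0.05 was found for 4, against 1817 of all 18769 probe sets and 444 of the 2148 bright ones. Vha44 read 10.16, 10.10 and 10.18 on mutant sucrose, below each of the wild-type sucrose arrays given above and below wild type on phenobarbital. The log2 difference was -0.39 ± 0.04, 1.31-fold lower (adjusted p = 0.0073 by limma), and it passed in each of the 12 fits that left out 1 array. On mutant phenobarbital it read 10.25, 10.26 and 10.32, a change of 0.13 ± 0.04 (adjusted p = 0.12), and the genotype difference on that diet was -0.05 ± 0.04. An intensity trend, the filter on dim probe sets or a fit of the 6 sucrose arrays alone left the sucrose call short of the threshold, with an adjusted p of 0.076, 0.073 and 0.17. Without wild-type sucrose replicate 3, 2 genes were lower, Vha44 and the testis-biased Vha36-3. Over the 12 genes of the plasma-membrane type the median genotype difference on sucrose was -0.03. Organ markers differed between the same groups without passing the test. All 18 ovary and eggshell markers were higher in the mutant or at 0.00, by a median of 1.22 on the log2 scale (mean log2 level per array 7.45 to 9.95 in wild type and 10.04 to 11.17 in the mutant, summed intensity 59126 to 91811 and 87408 to 123777), and 3 had an unadjusted p under 0.05 in limma. All 6 flight muscle markers were lower, by a median of -1.40 (13.05 to 13.82 and 11.64 to 12.78, summed intensity 69032 to 96890 and 48833 to 63068), again with 3 at an unadjusted p under 0.05. The part of these markers in the Vha44 difference was not tested.

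On phenobarbital no Vha gene differed between genotypes in limma, against 0.133% of all probe sets called at an adjusted p under 0.05. An unadjusted p under 0.05 was found for 7 members, against 2151 of all 18769 probe sets and 402 of the 2148 bright ones. For 7 of the 12 genes of the plasma-membrane type every mutant array was above every wild-type array, against 9.94% of all probe sets and 390 of the 2148 bright ones. The median difference was 0.11, beside 0.05 over the bright probe sets, with a range of -0.05 to 0.22 on the log2 scale and a lowest adjusted p of 0.34. This comparison shares its wild-type phenobarbital arrays with the diet comparison in wild type.

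Most of the 7 testis-biased paralogues were high and low on the same arrays as the testis markers. They are Vha68-3 (subunit A), Vha36-2 and Vha36-3 (D), Vha14-2 (F), Vha100-3 (a), VhaPPA1-2 (c'') and VhaAC39-2 (d), and Vha14-2 was dim. Wild-type sucrose replicate 2 was the highest array of its group for 7 of 7, and mutant sucrose replicate 3 for 6 of 7. Wild-type phenobarbital replicate 3 was the lowest of its group for 6 of 7, and mutant phenobarbital replicate 3 for 7 of 7. Of the 18 testis markers, 16, 16, 16 and 18 were at the same extremes on these 4 arrays. The share of all probe sets at these extremes was not counted. Over all probe sets that were not dim, deviations from the group means were also correlated between these arrays. Wild-type sucrose replicate 2 gave 0.67 with mutant sucrose replicate 3 and -0.789 with wild-type phenobarbital replicate 3. Replicate 3 of wild-type phenobarbital gave 0.695 with replicate 3 of mutant phenobarbital.

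Vha68-3 is the only gene for the catalytic subunit A among the members. Its log2 levels were 7.94, 9.02 and 7.98 on wild-type sucrose, 8.34, 8.24 and 7.46 on wild-type phenobarbital, 8.49, 7.82 and 8.80 on mutant sucrose and 7.76, 7.64 and 6.94 on mutant phenobarbital. The mean log2 level of the testis markers on the same arrays was 8.35, 9.04 and 8.48, then 8.68, 8.58 and 8.15, then 8.70, 8.35 and 8.99, and last 8.29, 8.18 and 7.78. High and low arrays of the gene were mostly those of the markers. Vha36-3 was the exception, since it was lowest on mutant sucrose replicate 3 and read 8.84, 9.02 and 8.31 on wild-type sucrose against 8.09, 8.22 and 7.93 on mutant sucrose, a difference of -0.64 ± 0.18 (adjusted p = 0.23 by limma).

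No testis-biased gene passed the test in any comparison. On phenobarbital their median log2 change was -0.29 in wild type, where 7 of 7 were negative, and -0.63 in the mutant, where 6 of 7 were (adjusted p of 0.24 or more by limma). Without wild-type sucrose replicate 2 the wild-type median was 0.05, with 5 of 7 positive. Without wild-type phenobarbital replicate 3 it was -0.11, with 2 of 7 positive, without wild-type sucrose replicate 1 it was -0.45, and without mutant sucrose replicate 3 the mutant median was -0.29. With the testis marker mean as a covariate the medians were -0.04 and 0.25. In the mutant this covariate did not overlap between the diets, at 8.35 to 8.99 on sucrose and 7.78 to 8.29 on phenobarbital. It therefore cannot be told apart from diet there. For the genes of the plasma-membrane type the wild-type median was -0.15 without both sucrose arrays with high testis markers and -0.17 with the covariate. It was -0.16 without these steps. Vha genes lower in wild type at an adjusted p under 0.05 in limma went from 6 to 1 and 4. The covariate and the choice of the left-out sucrose arrays came after seeing the data. The part of the testis markers in these results was not tested. The summed intensity of the 18 testis markers, 3 of them dim, was 37821 to 63426 on wild-type sucrose, 31222 to 50445 on wild-type phenobarbital, 39299 to 63417 on mutant sucrose and 22669 to 35769 on mutant phenobarbital.

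**Figure D4:**
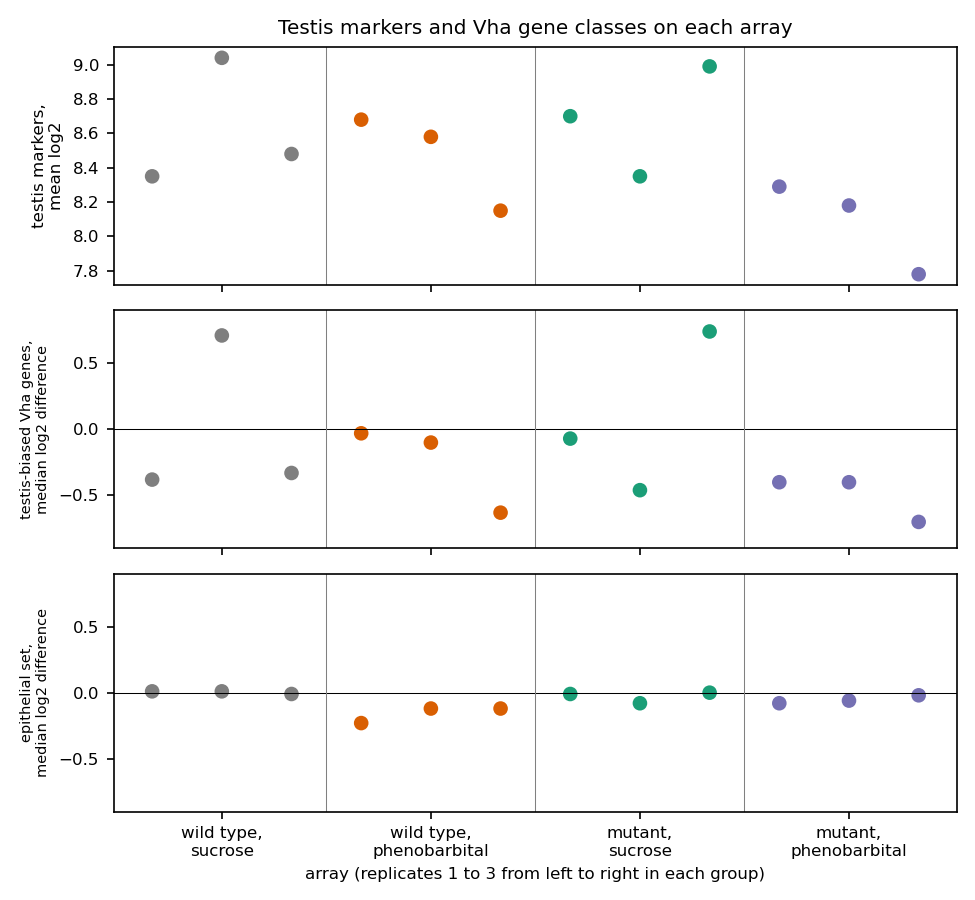
Per array, the mean log2 level of the testis markers and the median log2 difference from the wild-type sucrose mean for the testis-biased Vha genes and for the plasma-membrane type. The testis-biased genes reach 0.71 on wild-type sucrose replicate 2, 0.74 on mutant sucrose replicate 3 and -0.70 on mutant phenobarbital replicate 3, while the plasma-membrane type stays between -0.23 and 0.01.

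The other paralogues of the ring proteolipid were weak: Vha16-3, Vha16-4 and Vha16-5 were dim, with mean log2 levels of 3.74, 3.79 and 3.74, and Vha16-2 averaged 4.61. Vha16-2 and Vha16-3 are direct neighbours on chromosome arm 3L. Both, and Vha16-4, were lower on every mutant phenobarbital array than on any mutant sucrose array. The same held for 6 of 31 Vha genes in all and for 2079 of the 18769 probe sets. The nearest arrays read 4.51 and 4.52 for Vha16-2, 3.56 and 3.61 for the dim Vha16-3, and 3.73 and 3.74 for the dim Vha16-4. The log2 changes of Vha16-2, Vha16-3 and Vha16-4 were -0.57 ± 0.32, -0.42 ± 0.22 and -0.20 ± 0.11 (adjusted p of 0.43, 0.38 and 0.39 by limma). Of the subunit e paralogues, VhaM9.7-c changed by 0.03 ± 0.10 and 0.04 ± 0.10 in wild type and mutant. VhaM9.7-a and VhaM9.7-d had changes of -0.43 ± 0.27 and -0.21 ± 0.45 in wild type and of -0.33 ± 0.27 and -0.77 ± 0.45 in the mutant, none past the test. Like most testis-biased genes, VhaM9.7-d was highest on wild-type sucrose replicate 2 (8.13) and mutant sucrose replicate 3 (8.18) and lowest on mutant phenobarbital replicate 3 (5.93). VhaM9.7-a had the same extremes (9.10, 8.67 and 7.65). The pattern was not particular to the testis-biased class, since VhaM9.7-a and VhaM9.7-d shared it. Of the 19 genes outside the plasma-membrane type, 16, 13 and 14 were at these extremes of their groups. These counts include the testis-biased class, with 7, 6 and 7 of its 7 genes. The share of all probe sets at these extremes was not counted.

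Genes that work beside the pump were read as lists in the same fit. Of 22 ion transport partners, 3 fell and 0 rose in wild type at an adjusted p under 0.05, with a list median of -0.21, against 2.76% and 3.04% of all probe sets. In the mutant 2 fell and 1 rose, with a median of -0.05, against 1.94% and 4.24%. The potassium channel gene Irk3 was the member called with the 1.5-fold limit, and it fell in both genotypes, by 0.90 ± 0.15 and 0.85 ± 0.15 on the log2 scale (adjusted p = 0.0068 and 0.0087 by limma). Of 24 lysosomal genes, 1 rose and 1 fell in each genotype, near those shares, with a median of 0.07 in both. None of 7 genes of pump assembly and regulation passed in limma in either genotype, and 2 in wild type and 0 in the mutant had an unadjusted p under 0.05. That limit was met by 2619 and 3300 of all 18769 probe sets. None of 16 mitochondrial ATP synthase genes, which encode a related rotary enzyme, passed in either genotype (6 and 2 at an unadjusted p under 0.05), and their medians were -0.22 and -0.12. The plasma-membrane pump had medians of -0.16 and -0.01 in the same comparisons. A positive interaction was not particular to the pump. It was found for 21 of 22 ion transport partners (median 0.10), 11 of 16 mitochondrial ATP synthase genes (0.11) and 6 of 6 flight muscle markers (0.24). Of the lysosomal genes 12 of 24 were positive (0.01), and of the testis markers 0 of 18 (-0.54). None of these genes passed in limma.

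Malpighian tubule markers, from an organ rich in the pump, did not move as a block. Their mean log2 level lay between 7.40 and 7.84 on all 12 arrays, with 2 of 10 dim. In wild type it was 7.45 to 7.62 on sucrose and 7.63 to 7.84 on phenobarbital, without overlap. In the mutant it was 7.40 to 7.79 on sucrose and 7.68 to 7.75 on phenobarbital. Summed intensity was 4435 to 4892 on wild-type sucrose and 4579 to 5363 on wild-type phenobarbital. On mutant sucrose it was 4172 to 4997, and on mutant phenobarbital 4620 to 5015. In wild type ry, which encodes xanthine dehydrogenase, rose by 2.12 ± 0.20 and salt by 1.90 ± 0.24 on the log2 scale, and Irk3 and Oatp58Db, an organic anion transporter gene, fell by 0.90 ± 0.15 and 0.79 ± 0.13. The same genes were called in the mutant. There ry changed by 2.14 ± 0.20, salt by 1.78 ± 0.24, Irk3 by -0.85 ± 0.15 and Oatp58Db by -0.88 ± 0.13.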

How the data were processed

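The deposited table holds 1 normalized intensity for each probe set and array, computed with GCRMA per the submitters' processing notes, with the version not given in the sources used here. They lie on a linear scale by their range, and log2 was taken here of the deposited intensity. Of 18769 probe sets, 13647 name 1 gene in the platform table, 402 several and 4720 none. All 31 Vha symbols matched the RefSeq table of Release 6 plus ISO1 MT, used for names and neighbours only. Probe sets whose name ends in _s_at can match several transcripts (Vha26, Vha44, Vha55, Vha100-1, Vha100-2, VhaAC45 and the second of Vha16-1).

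Linear models with 1 mean per group were fitted to all 12 arrays and all probe sets with limma 3.58.1 in R 4.3.3 (8 residual degrees of freedom, 8.8 with the prior). Calls needed an adjusted p under 0.05 (Benjamini-Hochberg, all probe sets together) with and without a 1.5-fold minimum. Scripts were tested on simulated data. Every Vha gene could be named, and of each other list up to 2 called members per direction and contrast. The members and lists were chosen with earlier results of these data known. The number of arrays limits the precision. Alternatives were other fold limits (none, 2-fold), quantile normalization, a trended robust prior, leaving out dim probe sets, a block for replicate number, array weights, only the groups compared, another probe set of a gene, and each array left out. A testis marker covariate and leaving out the sucrose arrays with high testis markers were added after seeing the data. Same-numbered arrays were not paired: the correlations of their deviations ran from -0.712 to 0.695, with 7 of 18 above 0.1, and those of other pairs from -0.789 to 0.688.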

Additional observations from a re-analysis of the deposited data

Results flagged for a closer look

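Vha44 was singled out because its phenobarbital response had opposite signs by genotype, without overlap between the diets in either genotype. Only the Vha probe sets were screened for this, and the share of all probe sets that do the same was not counted. All 3 wild-type phenobarbital arrays were below all 3 wild-type sucrose arrays, and all 3 mutant phenobarbital arrays were above all 3 mutant sucrose arrays. The wild-type log2 change was -0.20 ± 0.04 (limma, adjusted p = 0.020). That of the mutant was 0.13 ± 0.04 and did not pass the threshold (limma, adjusted p = 0.12). The difference between them was 0.34 ± 0.06 (limma, unadjusted p = 0.00028, adjusted p = 0.39), which did not pass either.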

How the results depend on the processing

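Counts of Vha genes depended on the setting more than directions did: no called value changed sign under the alternatives run. The cause of the changed counts was not tested, and the share of all probe sets called was not counted for the alternative fits. In wild type on phenobarbital, 1 gene was lower at 1.5-fold: 6 with no minimum fold, and 0 at 2-fold, with only the groups compared, or without both arrays with high testis markers. At an adjusted p alone 6 were lower: 1 with an intensity trend, with the dim filter or without both arrays, 3 with array weights, 0 with only the groups compared. Higher calls were 0, and 1 without both arrays. In the mutant, array weights gave 2 lower calls at 1.5-fold and, at an adjusted p alone, 18 lower and 5 higher where there were 0, and leaving out both arrays gave 1 higher. For genotype on sucrose, 1.5-fold lower calls went from 0 to 1 with no minimum fold or array weights, and the 1 at an adjusted p became 0 with the trend, the dim filter or only the groups compared, and 2 with array weights or the probe set of highest variance. For the mean effect, no minimum fold gave 1 higher and 2 lower and array weights 1 lower, where there were 0. Its 1 higher gene at an adjusted p became 0 with the trend, quantile normalization or the dim filter. Its 2 lower became 1 with the trend or dim filter, 5 with quantile normalization, 10 with array weights and 0 without both arrays.

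With the replicate block, whose numbers were not found to pair the arrays, lower calls at an adjusted p were 2 in wild type and 1 for the mean effect. Leaving out 1 array gave 1 to 5 lower, 0 to 1 higher and, at 1.5-fold, 0 to 1 lower in wild type, 0 to 1 higher in the mutant, 1 to 2 lower, and 0 to 1 at 1.5-fold, for genotype on sucrose, and 1 to 2 lower and 0 to 1 higher for the mean effect. Low signal limits what can be said of the dim Vha14-2, Vha16-3, Vha16-4 and Vha16-5.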

Other observations

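ATP6AP2, an accessory protein of the pump formerly named VhaM8.9 and no member by its symbol, read 12.54, 12.50 and 12.50 on wild-type sucrose and 12.35, 12.44 and 12.43 on phenobarbital, without overlap (log2 change -0.11 ± 0.03, adjusted p = 0.067 by limma). In the mutant the change was 0.00 ± 0.03. Mitf, a transcription factor gene of lysosome and pump genes, was dim at a mean log2 level of 3.43 and changed by 0.17 ± 0.10 in wild type and 0.16 ± 0.10 in the mutant, neither past the test.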
